A study of Mus musculus with 6 samples.

Results

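The genes described here are 6 sodium-proton exchangers, Slc9a2, Slc9a3, Slc9a4, Slc9a7, Slc9a8 and Slc9a9, and 2 cation channels with a kinase domain, Trpm6 and Trpm7. They were matched by gene symbol, and all 8 were found among the 53379 genes of the deposited count table. They were picked with their values in this comparison known, so those values are given as a description, with no p-value, and nothing is read from whether a member passed the threshold that was applied to all genes. The libraries are total RNA from 3 lines of mouse pancreatic tumour organoids, which are epithelial cells grown as hollow structures in a gel of basement membrane proteins. The tumours came from C57/Bl6 mice that carry, among their engineered alleles, a Trp53 R172H allele behind a stop cassette that Cre recombinase removes, and Cre is driven by the Pdx1 promoter, active in the pancreas and the upper gut. In the heterozygous libraries (n = 3, lines 6, 23 and 34) the Trp53 R172H allele stood beside a wild-type allele. In the LOH libraries (loss of heterozygosity, n = 3, same lines) the genotype label gives no second Trp53 allele. All 6 libraries share the Trp53 R172H allele, Pdx1-Cre and the other engineered alleles, so neither group is a normal tissue. The descriptions of the LOH libraries also end in a suffix whose meaning no label states, and what it stands for cannot be told apart from the genotype.

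Sodium-proton exchangers move a proton out of a compartment in return for a sodium or potassium ion. Of those described here, the proteins of Slc9a2, Slc9a3 and Slc9a4 work mainly at the plasma membrane, where they remove acid from the cell and, in gut and kidney epithelium, take up sodium. Those of Slc9a7, Slc9a8 and Slc9a9 work mainly in the Golgi, trans-Golgi and endosomes, where they let protons leak out and so limit acidification. TRPM6 and TRPM7 are channels for magnesium, calcium and zinc with a kinase domain at the end of the protein. TRPM7 is made in most tissues, whereas TRPM6 is known for magnesium uptake in the intestine and the distal kidney tubule.

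The libraries held 13680458 to 27917277 expected counts, and protein-coding genes took 67.9 to 73.3% of them in the heterozygous and 61.4 to 67.2% in the LOH libraries. Trp53 had 76.3 to 86.5 CPM (counts relative to library size, scaled by edgeR's TMM method) in the heterozygous and 47.4 to 73.5 CPM in the LOH libraries, with a log2 fold change of -0.47 (SE 0.22, adjusted p 0.227 by edgeR), and its total level does not show which allele was transcribed. Markers of epithelium summed to 4580 to 5320 CPM in the heterozygous and 4690 to 8960 CPM in the LOH libraries, and the 8 acinar markers to at most 0.415 CPM anywhere. Pancreatic duct markers summed to 1580 to 1710 against 1280 to 5200 CPM, and 1 of them, Onecut1, was lower with LOH, at 23.4 against 1.13 CPM (log2 fold change -4.33, edgeR adjusted p 0.0365, and 0.106 with the line as a block). Cftr, of the same list, went the other way, at 8.25 against 60.5 CPM. Its log2 fold change was 2.86 (edgeR adjusted p 0.0602, and 0.0431 with the block). The rest of that list passed in neither. Markers of intestinal absorptive cells summed to 144 to 191 CPM in the heterozygous and 439 to 634 CPM in the LOH libraries, and 5 of the 7 tested among the 14 listed were higher with LOH (Vil1, Cdhr2, Cdhr5, Cdx2 and Krt20) and none was lower by edgeR. With the line as a block, Vil1, Cdhr5 and Cdx2 did not pass (edgeR adjusted p 0.113, 0.0941 and 0.0645) and Alpi did (0.0257). In lines 6, 23 and 34 Alpi had 0.3, 0 and 0 CPM without LOH and 64.5, 0.491 and 3.26 CPM with it. Most of its reads thus came from the LOH library of line 6. Slc5a1 passed in neither, with log2 ratios of 1.13, -1.31 and -2.25 in the same lines. Leukocyte markers, mainly Cd68, summed to 1.93 to 2.27 CPM in the heterozygous and 3.09 to 14.8 CPM in the LOH libraries, while the macrophage gene Lyz2 was at 0 counts in all 6 libraries. Endothelial markers summed to 0.0334 to 0.1 against 0.373 to 2.62 CPM, and fibroblast markers to at most 0.0667 against 0.466 to 0.873 CPM. Of the 2.62 CPM, 2.5 were Tek in the LOH library of line 6, and Tek was at 0 in the LOH libraries of lines 23 and 34. What these markers contribute to the values of the members was not tested.

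Slc9a2, Slc9a4 and Trpm6 were the members with the widest gap between the groups: each was near 1 or 2 CPM in every heterozygous library and between 10.4 and 127 CPM in every LOH library. Trpm7 and Slc9a8 were expressed in both groups, Slc9a9 was scarce in both, and Slc9a7 and Slc9a3 were close to the detection limit. In these bulk samples, fewer cells of a type and less RNA per cell cannot be told apart. Of the 8 members, 6 passed the filter on low counts. Of these 6, edgeR's quasi-likelihood test called 3, all higher with LOH, where it called 5.21% of the 14537 genes tested in either direction, 3.55% as higher and 1.66% as lower. For Slc9a2, Slc9a4 and Trpm6, and for Slc9a7, which was not tested, every LOH library lay above every heterozygous library, as it did for 16.4% of all tested genes. Nothing is read from these counts, because the members were chosen on this comparison. The call is an adjusted p under 0.05, and nothing in the labels says that the libraries of a group differ in more than their line, so p-values measure the spread among these samples. With the organoid line as a block, 1.47% of genes passed, 213 in place of 757. Leaving out any 1 of the heterozygous libraries left 0 genes, members included, past the threshold. Of the 757 genes, 68.2% were higher with LOH, but by limma on the log2(TPM + 1) scale 14.7% of 1911 were. There the median log2 fold change was -0.35 over the 11918 genes that passed a filter on TPM. It was 0.06 over the 14537 genes tested by edgeR. On log2(TPM + 1) with no filter the median was -0.03, and 19.1% of 241 called genes were higher.

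**Figure D1:**
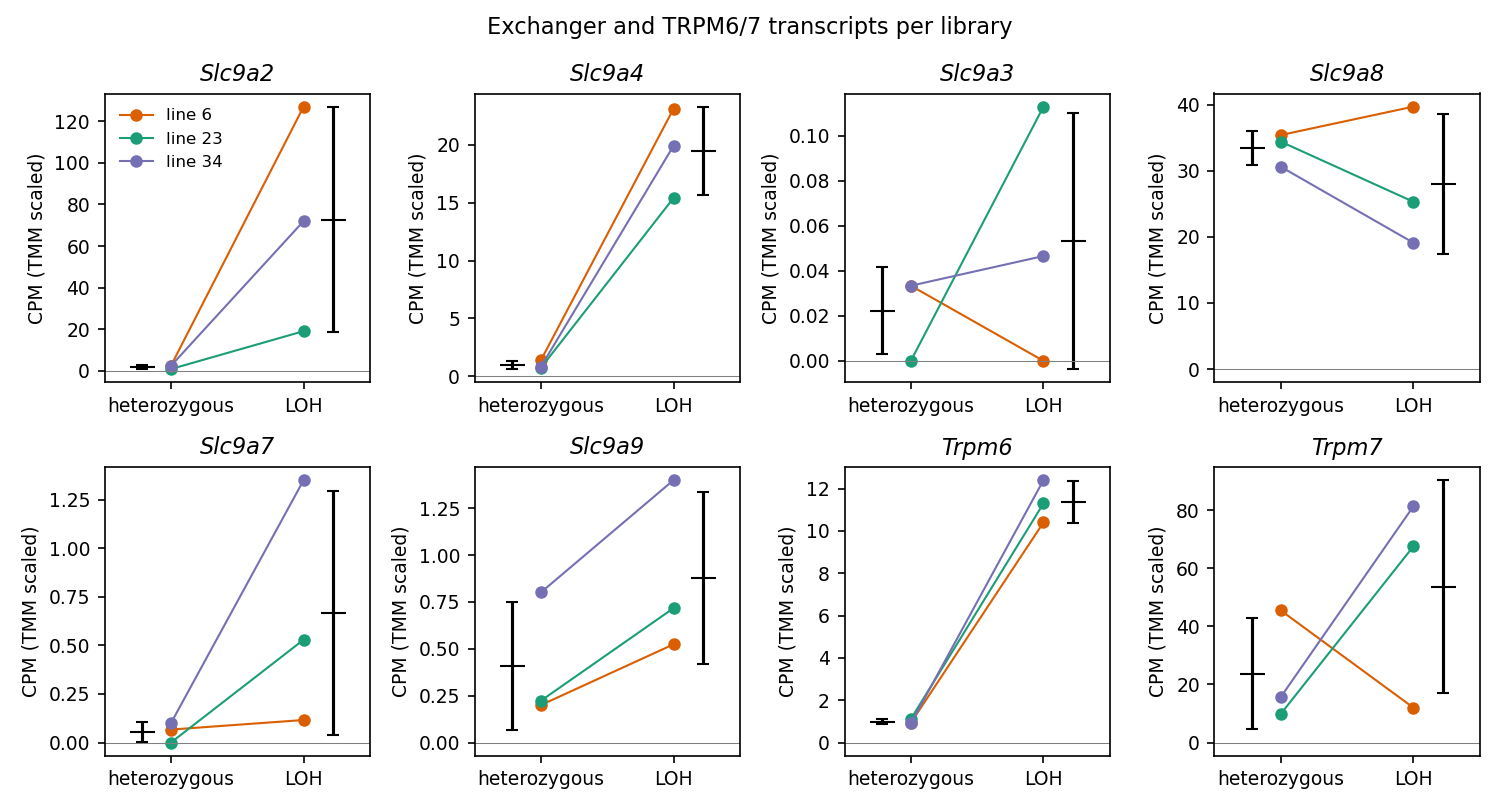
Level of each of the 8 genes in each library, in CPM on a linear axis that differs between panels. Points joined by a line are the heterozygous and LOH libraries of 1 organoid line, and the bars beside them are the mean and SD of 3 libraries. Slc9a2, Slc9a4 and Trpm6 are near the axis without LOH and higher with it in all 3 lines, whereas Trpm7 goes from 45.5 to 12 CPM in line 6 and is higher with LOH in lines 23 and 34.

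Among the exchangers of the plasma membrane, Slc9a2 (ENSMUSG00000026062.12; chromosome 1, 40680574 to 40769273, plus strand, GRCm38) codes for NHE2, an exchanger of the apical membrane of gut epithelium. In lines 6, 23 and 34 it stood at 2.5, 0.89 and 2.44 CPM without LOH against 127, 19.1 and 72.0 CPM with LOH in the same lines. The groups did not overlap, and the LOH library of line 23 was the low one of its group, while the heterozygous library of line 23 was the low one of the other. The means were 1.94 ± 0.912 and 72.7 ± 54.0 CPM (SD, n = 3 each), 37.4-fold apart. These levels rest on 75, 12 and 73 counts against 2181, 505 and 1546. Within lines 6, 23 and 34 the log2 ratios were 5.62, 4.29 and 4.84, and the log2 fold change over all libraries was 5.18 (SE 0.78). Without the LOH library of line 6 the log2 fold change was 4.45. Over all 6 libraries Slc9a2 spanned 143-fold.

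Slc9a4 (ENSMUSG00000026065.8; chromosome 1, 40580081 to 40630725, plus strand) codes for NHE4, best known from the basolateral membrane of acid-secreting cells of the stomach. Its level was 1.4, 0.742 and 0.835 CPM in the heterozygous libraries, in the order of lines 6, 23 and 34, and 23.1, 15.4 and 19.9 CPM in those with LOH. The groups did not overlap, and the LOH libraries lay closer together than those of Slc9a2. The means were 0.993 ± 0.357 and 19.5 ± 3.82 CPM (SD, n = 3 each), 19.6-fold apart. By line the log2 ratio was 3.96, 4.23 and 4.44, and the log2 fold change over all libraries was 4.26 (SE 0.35). In TPM, RSEM's length-scaled unit, Slc9a2 stood at 3.65, 0.93 and 2.17 times Slc9a4 in the LOH libraries of lines 6, 23 and 34. Both genes were thus near equal in line 23, where their main coding transcripts had 3.35 (Slc9a2-201) and 3.38 TPM (Slc9a4-201). Slc9a4-204, a noncoding transcript of 342 bases, held 16.9 and 25.0% of the TPM of Slc9a4 in lines 6 and 34. That share came from 3.89 and 6.86 counts.

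Slc9a3 (ENSMUSG00000036123.8; chromosome 13, 74121457 to 74169442, plus strand) codes for NHE3, the main sodium-absorbing exchanger of the small intestine and kidney. It had 1, 0 and 1 counts in the heterozygous and 0, 3 and 1 counts in the LOH libraries. All these values are at or below 3 counts, which are worth 0.1 to 0.223 CPM in these libraries, so no fold is given and the gene was not tested. The pooled counts of 2 and 4 gave a rate ratio of 2.25 with a 95% interval of 0.323 to 24.9, which covers counting error only. A difference in Slc9a3 was not detectable at this depth.

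Slc9a4 and Slc9a2 are neighbours on the same strand, with 49848 bases and 0 annotated genes between them. The 8 other protein-coding genes within 500 kb, chosen by position after the values of Slc9a2 and Slc9a4 were seen, include receptors of the interleukin-1 and interleukin-18 families. Of the 5 tested, Il18rap and Il18r1, subunits of the interleukin-18 receptor, were called higher with LOH. Il18rap had 0.867, 0.965 and 0.701 CPM in the heterozygous and 4.13, 3.93 and 3.68 CPM in the LOH libraries, a log2 fold change of 2.21 (edgeR adjusted p 0.0219, and 0.0719 with the line as a block). Il18r1 had a log2 fold change of 2.82 (edgeR adjusted p 0.0477, and 0.0968 with the block). Il1rl2 had 4.87, with an edgeR adjusted p of 0.0564 that became 0.0318 with the block. Il1r1 (1.49) and Mfsd9 (1.5) passed in neither. The log2 fold change of Il1rl2, which rests on very few heterozygous reads, lay between those of Slc9a4 (4.26) and Slc9a2 (5.18). The other 4 were below both.

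Transcripts annotated on the strand opposite to the pair were few. Gm37623, opposite Slc9a2, had 0, 0 and 0 counts in the heterozygous and 3, 5 and 1 counts in the LOH libraries. Gm37435, opposite Slc9a4, had 1.05, 0 and 0 counts against 10.87, 29.32 and 17.49. The kit keeps strand, but the strand setting of the counting is not given in the sources used here, so reads of overlapping genes could have been assigned to either.

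Of the exchangers of inner membranes, Slc9a8 (ENSMUSG00000039463.14; chromosome 2, 167421712 to 167477000, plus strand) codes for NHE8, found in the Golgi and at the apical membrane of gut epithelium. It had 35.4, 34.4 and 30.6 CPM in the heterozygous and 39.7, 25.3 and 19.1 CPM in the LOH libraries. Groups overlapped here, with the highest and the lowest library both in the LOH group. The means were 33.5 ± 2.53 and 28.0 ± 10.6 CPM (SD, n = 3 each), and the log2 fold change was -0.26 (SE 0.28). The log2 ratios of lines 6, 23 and 34 had different signs, at 0.16, -0.44 and -0.68.

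Slc9a9 (ENSMUSG00000031129.9; chromosome 9, 94669909 to 95230445, plus strand) codes for NHE9, an exchanger of late recycling endosomes. It had 6, 3 and 24 counts in the heterozygous and 9, 19 and 30 counts in the LOH libraries, or 0.2, 0.223 and 0.801 against 0.524, 0.717 and 1.4 CPM. Line 34 was the highest of each group and the groups overlapped, although each line was higher with LOH (log2 ratios of 1.09, 1.38 and 0.74). The log2 fold change was 1.06 (SE 0.69). Without the heterozygous library of line 34 it was 2.03, and without the LOH library of that line 0.56. The pooled counts of 33 and 58 gave a rate ratio of 1.98 with a 95% interval of 1.27 to 3.14 for counting error only, which leaves out the spread between lines.

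Slc9a7 (ENSMUSG00000037341.14; X chromosome, 20105754 to 20291807, minus strand) codes for NHE7, an exchanger of the trans-Golgi network. It had 2, 0 and 3 counts in the heterozygous and 2, 14 and 29 counts in the LOH libraries, and it did not pass the filter. The LOH libraries of lines 23 and 34 carried nearly all of its reads, and that of line 6 was at the level of the heterozygous libraries in counts. In CPM the lowest LOH library, at 0.116, lay just above the highest heterozygous one, at 0.1, a gap that is smaller than what 1 count is worth there. The pooled counts of 5 and 45 gave a rate ratio of 10.1 (95% interval 4.04 to 32.7, counting error only). That interval leaves out the spread between lines, and Slc9a7 was picked with these values known.

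The make-up of the transcripts of the 6 exchangers differed between the groups. In TPM, which can be set side by side between genes, they summed to 16, 12.5 and 13.9 in the heterozygous libraries, in the order of lines 6, 23 and 34, and to 43.2, 15.5 and 23.3 with LOH. Slc9a2 and Slc9a4 together made up 7.06, 6.3 and 5.74% of that sum in the heterozygous and 73.2, 45.8 and 73.6% in the LOH libraries. The share of Slc9a8 was 91.8, 93.1 and 91.8% against 26.4, 51.1 and 22.7%. Slc9a8 was the most abundant of the 6 in every heterozygous library and in the LOH library of line 23, and Slc9a2 was in the LOH libraries of lines 6 and 34. As shares of 1 sum, these values are lower for one gene when they are higher for another, and exchanger genes outside the 6 are not part of the sum.

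**Figure D2:**
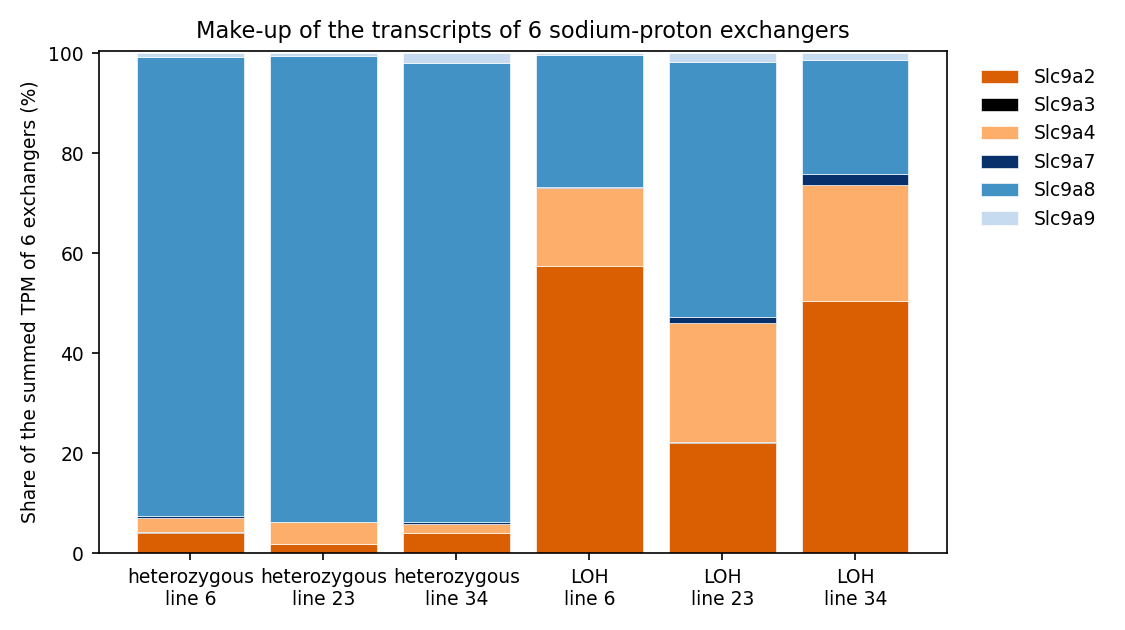
Share of each of the 6 exchanger genes, in percent, in their summed TPM, as 1 stacked bar per library. Orange shades are Slc9a2 and Slc9a4, blue shades the exchangers of inner membranes, and Slc9a3, in black, is too small to see. The orange part is 5.74 to 7.06% high in the heterozygous bars and 45.8 to 73.6% high in the LOH bars.

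Over all 8 members, the order by mean TPM in the heterozygous libraries was Slc9a8 (13 ± 1.53 TPM, SD, n = 3), Trpm7 (4.85 ± 4.30), Slc9a2 (0.483), Slc9a4 (0.423), Trpm6 (0.173), Slc9a9 (0.16), Slc9a7 (0.0333) and Slc9a3 (0.00667). Slc9a2 and Slc9a4, Trpm6 and Slc9a9, and Slc9a7 and Slc9a3 had overlapping ranges and could not be ordered within their pair. The order between these pairs is not firm either. By coding transcript, Slc9a4-201 had 0.14 TPM in line 23, where Trpm6 had 0.18. The lowest value of Slc9a9 (0.07 TPM, line 23) and the highest of Slc9a7 (0.06 TPM, line 34) each rest on 3 counts. With LOH the order was Slc9a2 (13.3 ± 10.8 TPM), Slc9a8 (8.21 ± 3.07), Trpm7 (7.38 ± 4.15), Slc9a4 (5.30 ± 1.56), Trpm6 (1.54), Slc9a7 (0.253), Slc9a9 (0.247) and Slc9a3 (0.01). The first 4 overlapped with their neighbours in that order, as did Slc9a7 with Slc9a9. Trpm6 stood apart from both of its neighbours.

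Trpm6 (ENSMUSG00000024727.8, chromosome 19, 18749983 to 18892511, plus strand) and Trpm7 (ENSMUSG00000027365.14, chromosome 2, 126791565 to 126876230, minus strand) behaved differently from each other. Whether this goes with the sequence near their starts was not tested. The sequences around their transcription starts are shown as a description. Each runs from 250 bases before to 50 bases after the start in RefSeq's GRCm38.p6 annotation, 5′ to 3′ on the strand of the gene, with CG dinucleotides in capitals. RefSeq places the start of Trpm6 253 bases before the GENCODE start given above, so its window does not hold that start, whereas for Trpm7 both starts lie 31 bases apart.
Trpm6, chr19:18749480-18749779, plus strand: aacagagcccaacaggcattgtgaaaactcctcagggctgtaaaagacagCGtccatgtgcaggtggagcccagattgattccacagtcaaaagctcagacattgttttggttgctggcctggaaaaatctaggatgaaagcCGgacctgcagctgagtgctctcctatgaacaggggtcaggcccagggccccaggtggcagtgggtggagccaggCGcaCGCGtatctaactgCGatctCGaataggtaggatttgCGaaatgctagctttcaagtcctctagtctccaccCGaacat
Trpm7, chr2:126876212-126876511, minus strand: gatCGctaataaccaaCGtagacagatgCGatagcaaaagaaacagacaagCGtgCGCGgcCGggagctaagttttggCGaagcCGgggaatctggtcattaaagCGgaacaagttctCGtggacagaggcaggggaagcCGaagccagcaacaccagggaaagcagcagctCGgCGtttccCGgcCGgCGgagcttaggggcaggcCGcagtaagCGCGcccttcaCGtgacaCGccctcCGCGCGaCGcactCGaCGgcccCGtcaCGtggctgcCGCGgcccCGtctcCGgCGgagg
The Trpm6 window holds 9 CG dinucleotides at 53% G and C, near the medians of 7 and 52.7% over 32851 promoter windows of the same length. The Trpm7 window holds 35 at 63.7%, and 93.0% of the windows hold fewer. Both windows were searched on both strands for CACGTG, the E-box, which 7.15% of windows hold, for GGGCGG, the GC box (35.7%), for TATAAA, the TATA box (13.6%), and for the half-site of the p53 response element (8.36%). Trpm7 had 2 matches to the E-box and 1 to the p53 half-site, and none to the other motifs or to a full p53 element, which is a pair of half-sites at most 13 bases apart and is found in 0.0731% of windows. Trpm6 had no match to these letters in this window. Of the exchangers, Slc9a3 and Slc9a7 had 25 and 24 CG dinucleotides, Slc9a8 had 22 and Slc9a9 had 6. RefSeq promoter windows were found for 6 of the 8 members, not for Slc9a2 or Slc9a4.

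Without LOH, Trpm6 stood at 0.934, 1.11 and 0.901 CPM in lines 6, 23 and 34, and with LOH at 10.4, 11.3 and 12.4 CPM. The groups did not overlap and the libraries of each group lay close together. The means were 0.983 ± 0.114 and 11.4 ± 1.01 CPM (SD, n = 3 each), 11.6-fold apart, from 28, 15 and 27 against 179, 298 and 267 counts. The log2 ratio was 3.36, 3.24 and 3.66 in lines 6, 23 and 34, and the log2 fold change 3.54 (SE 0.27). A log2 fold change of at least that size was found for 1.29% of all tested genes. Nothing is read from that share, because Trpm6 was picked with its values in this comparison known. In TPM the LOH libraries were at 1.55, 1.52 and 1.54. All reads fell on the 1 transcript annotated for the gene.

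Trpm7 had 45.5, 9.87 and 15.7 CPM in the heterozygous and 12, 67.6 and 81.4 CPM in the LOH libraries. Groups overlapped here too: the heterozygous library of line 6 was high in its group, and the LOH library of line 6 was low in the other. Its means were 23.7 ± 19.1 and 53.7 ± 36.7 CPM (SD, n = 3 each), from 1365, 133 and 471 against 207, 1791 and 1749 counts. The log2 ratios of lines 6, 23 and 34 were -1.91, 2.77 and 2.37, and the log2 fold change over all lines was 1.18 (SE 0.78). Without line 6, the line that goes the other way, it was 2.5 (SE 0.3). The highest library exceeded the lowest 8.25-fold.

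The balance between both channels also differed between the libraries. The TPM of Trpm7 was 51.5, 10.6 and 19.1 times that of Trpm6 in the heterozygous and 1.67, 6.36 and 6.42 times in the LOH libraries of lines 6, 23 and 34. Trpm6 made up 1.91, 8.65 and 4.97% of the TPM of both in the heterozygous and 37.4, 13.6 and 13.5% in the LOH libraries. These shares did not overlap between the groups, with Trpm7 itself lower with LOH in line 6 and higher in lines 23 and 34. Nothing is read from this, because Trpm6 was picked with its values known and no other pair of genes was compared. The shares were not corrected for the property of the libraries described in the next paragraph. Trpm7 was the more abundant of both in all 6 libraries.

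The levels of Trpm7 went with a property of the libraries. Its longest annotated transcript has 7107 bases and 40.1% G and C, where the medians of all tested genes are 3135 bases and 49.4%. The log2 CPM of Trpm7, taken from its mean over 6 libraries, was 0.70, -1.49 and -0.82 in the heterozygous and -1.21, 1.27 and 1.54 in the LOH libraries. The medians of the 412 tested genes with under 38% G and C were 0.43, -0.62 and -0.42 against -0.74, 0.75 and 0.77, which are high and low in the same libraries. Among the 940 genes with 40 to 42%, to which Trpm7 belongs, they were 0.24, -0.25 and -0.10 against -0.32, 0.24 and 0.32, smaller than the values of Trpm7. The 304 genes with transcripts of 10000 bases or more had 0.31, -0.58 and -0.46 against -0.26, 0.66 and 0.26.

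**Figure D3:**
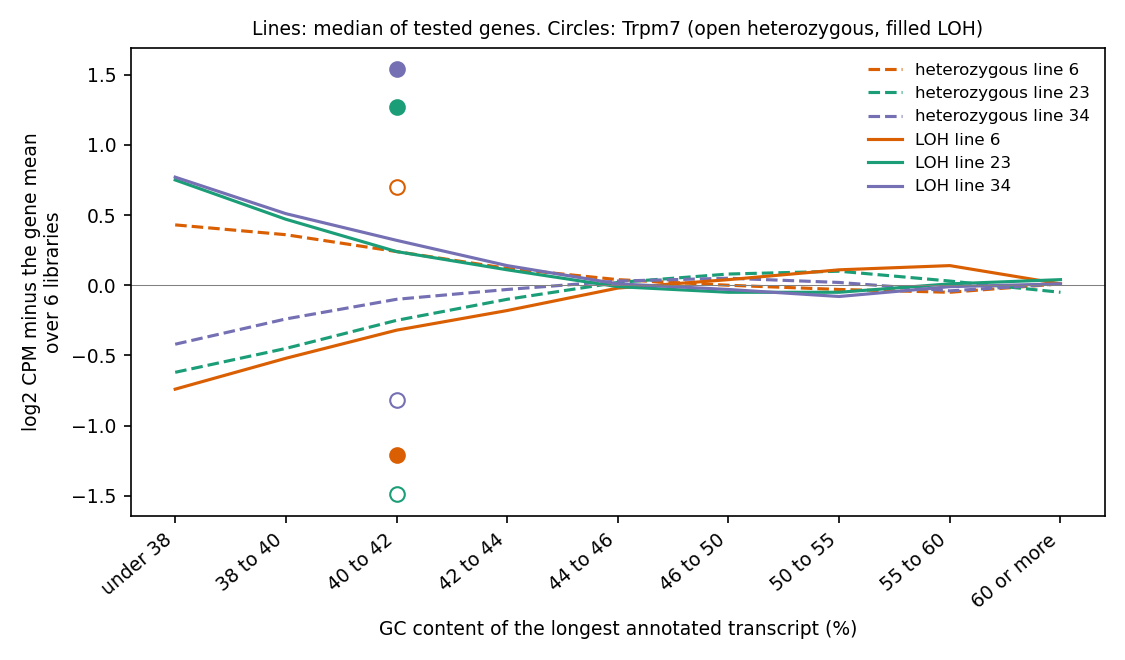
Median log2 CPM of the tested genes, relative to the mean of each gene over 6 libraries, by the G and C content of the longest transcript in percent; dashed lines are heterozygous and full lines LOH libraries, coloured by organoid line. Circles are Trpm7. The lines fan out toward low G and C content, and Trpm7 is above 0 in the same 3 libraries as the medians of its range of 40 to 42%, farther from 0 than they are.

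When a smooth trend on length and G and C content was removed from each library, a step chosen after seeing these data, the log2 ratios of Trpm7 became -1.07, 1.56 and 1.40 in lines 6, 23 and 34 and its log2 fold change 0.69 (SE 0.47). Its SD over the 6 libraries dropped from 1.33 to 0.76 on the log2 scale, and the opposite sign of line 6 remained. Slc9a2, Slc9a4 and Trpm6, with 53.5, 46.1 and 47.1% G and C, had log2 fold changes of 5.07, 4.26 and 3.40 after the same step. Trpm6 is about as long as Trpm7, at 6509 bases, and its line ratios were 3.44, 2.93 and 3.50.

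Several members have more than 1 annotated transcript, and the deposited transcript tables split the reads among them by estimate. Trpm7-202, a coding transcript of 7107 bases, held 66.2, 33.5 and 70.7% of the TPM of Trpm7 in the heterozygous and 58.1, 69.7 and 68.1% in the LOH libraries. Trpm7-201, also coding, held 17.1, 34 and 9.76% against 0, 14.4 and 23.5%. Both are near-complete forms of 39 exons, so their split is uncertain, and the groups overlapped for each. Slc9a8-201 held 51.5, 45.5 and 37.9% of the TPM of Slc9a8 in the heterozygous and 54.7, 47.4 and 32.0% in the LOH libraries. Slc9a8-203, another coding form, held 10.9, 9.59 and 13.2% against 14.3, 1.39 and 0%. The main coding transcript carried most reads of the other tested genes: Slc9a2-201 had 2169.28, 502.12 and 1537.94 counts and Slc9a4-201 had 392.24, 396.5 and 419.66 counts in the LOH libraries.

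The genes whose pattern was most like that of a member, measured by the root mean square difference of centred log2 CPM over the 6 libraries, are named for the 3 members with the largest SD. They were searched among 12678 genes, on the same values that were known when the members were picked. For these 3 members, genes with a like gap between the groups come out near, so the matches are a description only. Slc9a2 was closest to Rbm11, which codes for an RNA-binding protein (difference 0.457), and Gucy2c, the gut receptor for guanylin (0.58). Rbm11 had 0.133, 0 and 0.167 CPM in the heterozygous libraries, near the detection floor, and 8.15, 3.32 and 5.49 CPM in the LOH libraries. Gucy2c had 3.0, 0.371 and 2.1 CPM in the heterozygous and 113, 27.1 and 37.5 CPM in the LOH libraries, with line 23 lowest in both groups as for Slc9a2. Slc9a4 was closest to Prom2, which codes for prominin-2 of membrane protrusions (0.223), and Apobr, an apolipoprotein B receptor (0.329). Trpm6 was closest to Krt20, an intermediate filament gene of differentiated gut epithelium (0.179), and Bcl2l14, of the BCL2 family (0.245). Krt20 had 8.51, 9.79 and 6.68 against 79.2, 65.8 and 92.2 CPM. The gene closest to Trpm7, named after its values were seen, was Dmxl1 at 0.0863, with 54.0, 11.6 and 18.2 against 13.6, 69.7 and 83.5 CPM. Its protein takes part in assembly of the vacuolar proton pump. This match is a description too, and whether Dmxl1 follows the trend on length and G and C content was not tested.

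Of the other exchanger genes listed here, 1 was tested. Slc9a5, which codes for NHE5, an exchanger known mainly from brain, had a log2 fold change of 0.02 (adjusted p 0.973 by edgeR), where the median over all tested genes was 0.06. Slc9b1, Slc9b2 and Slc9c1 did not pass the filter, with 39, 11 and 0 counts in the heterozygous and 2, 151 and 0 counts in the LOH libraries together. All 39 counts of Slc9b1 came from the heterozygous library of line 6, and 143 of the 151 counts of Slc9b2 from the LOH library of line 23.

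Proteins that hold or regulate the exchangers at the membrane were listed with 13 genes, of which 10 were tested; their median log2 fold change was 0.14. None was called by edgeR without the block, 5 had an unadjusted p under 0.05, and DESeq2 called 3, limma 3 on log2(TPM + 1) and 2 on log2(TPM + 0.1), and edgeR with the block 1. The smallest p-values belonged to Tesc and Slc9a3r2, which DESeq2 called (adjusted p 0.0144 and 0.0247, with ranges of 0.0144 to 0.298 and 0.0247 to 0.434 over the alternatives). Tesc codes for tescalcin, a calcium-binding protein, and its log2 fold change was -1.67 (SE 0.46, adjusted p 0.0814 by edgeR). Slc9a3r2, which codes for the scaffold NHERF2, had 1.20 (SE 0.35, adjusted p 0.0946 by edgeR). Slc9a3r1, for the scaffold NHERF1, and Ezr, for ezrin, which ties that scaffold to actin, were abundant, at 166.8 and 568.6 CPM in the heterozygous and 184.1 and 623 CPM in the LOH libraries. Prkg2, chosen after its values were seen, was called by edgeR with the line as a block and not without it. It codes for the cGMP-dependent kinase that acts on NHE3 and the chloride channel CFTR, and its mean was 9.06 CPM in the heterozygous and 151 CPM in the LOH libraries, with 389 CPM in line 34.

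Among 33 other carriers and enzymes of acid and base transport, 23 were tested, of which 2 were higher with LOH, none was lower and 21 did not pass, with a median of 0.09. Slc16a3, which codes for MCT4, the exporter of lactate with a proton, rose from a mean of 20.3 ± 12.8 CPM to one of 127 ± 7.46 CPM (SD, n = 3 each), which is 2.65 on the log2 scale (SE 0.49, adjusted p 0.0329 by edgeR, and 0.0626 with the line as a block; 1.78e-06 to 0.15 over the alternatives). Car8, which codes for a protein related to carbonic anhydrase that lacks the enzyme's activity, rose from 6.96 to 48.6 CPM, a log2 fold change of 2.81 (SE 0.53, adjusted p 0.0339 by edgeR). Cftr, named after its values were seen, was called by edgeR with the block and not without it, at 8.25 and 60.5 CPM.

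Of the 27 tested genes listed for organelle acidification, mostly subunits of the vacuolar proton pump and chloride exchangers of the same membranes, 1 rose, 1 fell and 25 did not pass, with a median of 0.14. Tcirg1, which codes for a membrane subunit of the pump, rose by 0.91 on the log2 scale (SE 0.2, adjusted p 0.0499 by edgeR, and 0.143 with the block; 0.00283 to 0.288 over the alternatives). Atp6v0e2, another membrane subunit, had a log2 fold change of -1.64 (SE 0.29, adjusted p 0.0313 by edgeR, and 0.0856 with the block; 2.34e-05 to 0.217 over the alternatives). The call of Tcirg1 was lost under 17 of its 21 alternatives.

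Of the TRPM genes, 3 of 8 were tested. Trpm4, which codes for a calcium-activated channel for sodium and potassium, was the only one outside the pair; it had means of 21.4 ± 4.27 and 44.8 ± 11.3 CPM (SD, n = 3 each) and a log2 fold change of 1.07 (SE 0.26, adjusted p 0.0636 by edgeR). Trpm1, Trpm2, Trpm3, Trpm5 and Trpm8 did not pass the filter.

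Magnesium carriers and their regulators were listed with 27 genes, of which 20 were tested, 2 rose, 1 fell and 17 did not pass, with a median log2 fold change of 0.12. Nipal1, of the NIPA magnesium transporters, rose from 9.60 to 63.3 CPM, a log2 fold change of 2.72 (SE 0.39, adjusted p 0.0197 by edgeR). Nipal3, of the same family, rose from 16.4 to 31.4 CPM, a log2 fold change of 0.94 (SE 0.17, adjusted p 0.0314 by edgeR, and 0.119 with the block; 3.48e-05 to 0.584 over the alternatives). Mrs2, the magnesium channel of the inner mitochondrial membrane, had a log2 fold change of -1.18, from 58.5 to 25.8 CPM (SE 0.2, adjusted p 0.0279 by edgeR, and 0.0925 with the block; 1.74e-05 to 0.209 over the alternatives). Like all others, each of these calls was lost without any 1 heterozygous library.

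**Figure D4:**
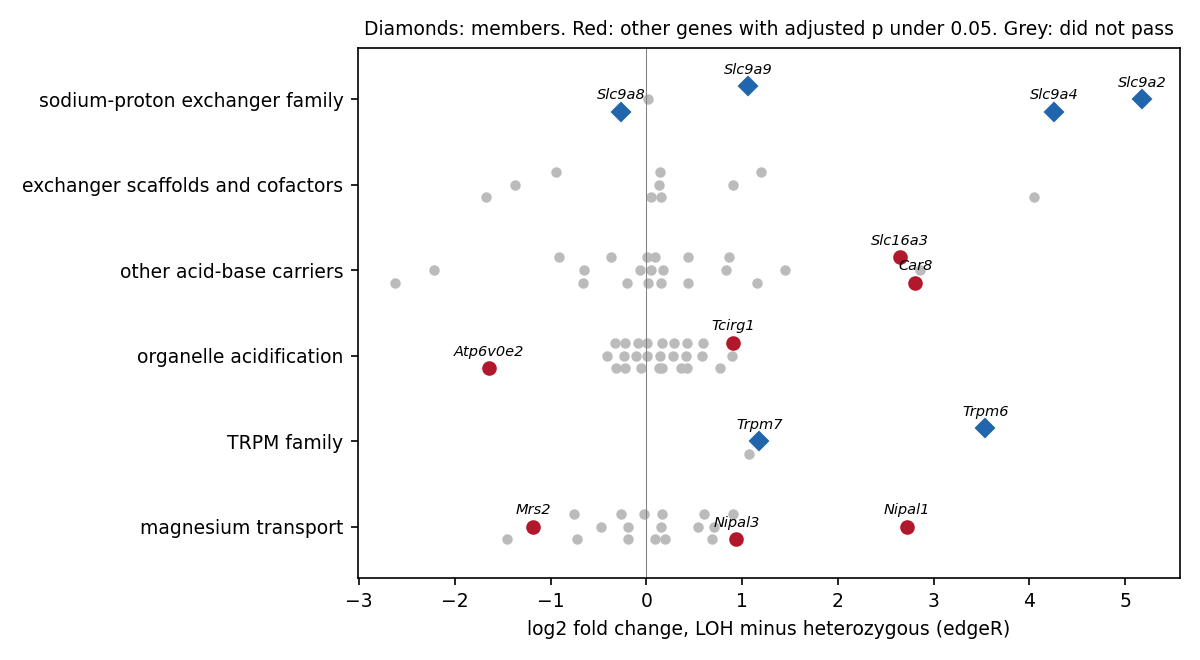
Log2 fold change, LOH minus heterozygous, of every tested gene of the 6 lists, 1 point per gene, with vertical offsets for legibility only. Blue diamonds are the members, red circles other genes with an edgeR adjusted p under 0.05 and grey circles genes that did not pass. The diamonds of Slc9a2, Slc9a4 and Trpm6 lie between 3.54 and 5.18, to the right of most points, and the bulk of each larger list lies near 0.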

How the data were processed

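Per the labels' protocols, a kit that keeps strand turned total RNA of 6 organoid samples into libraries. Per the submitters' processing notes, the tools were FastQC 0.11.5, STAR 2.5.2b, RSEM 1.3.0 and DESeq2 1.44.0 with GRCm38.p5. The authors deposited expected counts for genes and for transcripts; they can be fractional, since RSEM splits ambiguous reads. They also deposited TPM values, effective lengths and, per transcript, the percent of its gene, per the file headers. Normalized values (signal) deposited by the authors were used for gene names alone. The 8 members and the gene lists were chosen with earlier results of these data known.

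Expected counts were rounded and genes with low counts dropped (filterByExpr), which left 14537. They were scaled by TMM and tested with edgeR 4.0.16 (R 4.3.3) by its quasi-likelihood test with Benjamini-Hochberg adjustment, two-sided, at 0.05, LOH against heterozygous. CPM values are TMM-scaled, and log2 CPM uses a prior count of 2. Members got no p-value. Some items are not reported here. From the related lists, the remaining exchanger and TRPM genes reported here were named, and from each other list up to 3 called genes per direction by p, or 2 where none passed. Libraries of 1 line were paired by the line number in the titles. Deviations from the group means correlated at -0.3, 0.01 and 0.29 within lines 6, 23 and 34. Between different lines they correlated at -0.39 to 0.3, so libraries of the same line were not more alike than those of different lines. Alternatives were another scaling, other filters, DESeq2 1.42.0, limma 3.58.1 on log2(TPM + 1) or log2(TPM + 0.1), the line as a replicate block, and leaving out each library or line. A length and GC trend (loess, span 0.5) was added after seeing the data. For coordinates, 53274 of the 53379 identifiers were found in release 21 of GENCODE's mouse annotation. A value of 3 counts was taken as the detection floor, and intervals of pooled counts are exact at the 95% level.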

Additional observations from a re-analysis of the deposited data

Results flagged for a closer look

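Among the tested members and the other genes named from the lists by rule, 3 genes had lines whose log2 ratios went in opposite directions with LOH. Genes outside these were not searched for it, nor were members that did not pass the filter. With 1 library per genotype in each line, these differences between lines were not tested. The log2 ratio of Trpm7 was -1.91 in line 6 against 2.77 in line 23 and 2.37 in line 34, a distance of 4.68 between the lowest and the highest line. After the trend on length and GC content was removed, it was still -1.07 against 1.56 and 1.40. Slc9a8 had a distance of 0.84 between line 6 and line 34. For Slc9a5, an exchanger that is not a member, the distance was 0.55.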

How the results depend on the processing

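Under the 21 alternatives (18 for Slc9a9), no tested member changed direction. The log2 fold change ranged from 2.95 to 5.63 for Slc9a2, from 2.12 to 4.58 for Slc9a4, from 1.11 to 3.63 for Trpm6, from 0.52 to 2.5 for Trpm7, from -0.72 to -0.05 for Slc9a8 and from 0.11 to 2.03 for Slc9a9. The lowest values of Slc9a2, Slc9a4 and Trpm6 came from log2(TPM + 1), whose added constant shrinks the change of low genes. Slc9a5, near 0, turned to -0.02 with no filter, to -0.16 on log2(TPM + 1) with no filter, to -0.03 and -0.01 without the heterozygous libraries of lines 23 and 34, to -0.09 and -0.10 without the LOH libraries of lines 6 and 34 (with 0.19 without that of line 23), to -0.12 without line 34, and to -0.13 and, with the block, -0.15 after trend removal; the cause was not tested.

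The count of 757 called genes became 213 with the replicate block, 2281 with DESeq2, 1911 with limma on log2(TPM + 1), 1753 on log2(TPM + 0.1) and 241 on log2(TPM + 1) with no filter. It was 1422 without line 6, and 0 without line 23 or line 34 (2253 and 2097 genes at an unadjusted p under 0.05). After trend removal 1073 genes were called, 713 of them among the 757, and 446 with the block too. Leaving out 1 library gave 0 to 2449 genes. It was 0 without the heterozygous library of line 6, 23 or 34 (unadjusted p under 0.05 in 2966, 2637 and 2272), 2449 without the LOH library of line 6 and 451 without that of line 23. The 5 scaling and filter alternatives of the edgeR test stayed within 1.5 times, at 627 to 979. The block took away the calls of Slc16a3, Tcirg1, Atp6v0e2, Nipal3 and Mrs2 and not those of Car8 and Nipal1. By share of counts in place of TPM, Trpm7-202 held 67.6 and 81.8% and Slc9a8-201 67.1 and 65.7% of their genes in the heterozygous and LOH libraries. Depth limits what can be said of Slc9a3, Slc9a7 and Slc9a9.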
